A study of Mus musculus with 15 samples.

Results

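Hearts of septic wild-type mice titled Max Dep were compared with hearts of septic wild-type mice titled Min Dep, 3 arrays of each and 6 of the 15 arrays in the series, over every probe set paired with 1 gene. All 6 mice were C57/BL6 and had undergone the same operation, CLP (ligation and perforation of the caecum), which closes the blind pouch of the large bowel with a thread and pierces it, letting gut bacteria into the abdomen. The hearts were collected 48 hours after surgery and frozen whole, with the blood emptied out, so muscle, vessels, connective tissue and immune cells were extracted together. Each mouse was operated on under isoflurane and given buprenorphine and saline afterwards, and each was anaesthetised with ketamine and xylazine for a pressure recording from the aorta and left ventricle just before the heart was taken. The titles do not spell out Dep, and the pressure recordings were not analysed here. The 3 wild-type sham hearts share the value table and entered the fit, while the 6 hearts of Nos2 knockout mice, which lack inducible nitric oxide synthase, lie in a separately scaled table and were not used here. Each array carries an animal code of its own in its title, and age and sex are not given in the sources used here. Every p-value sets a difference against the spread of arrays within their groups, over these 9 arrays unless another set is named.

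Sepsis weakens the heartbeat, and in survivors the weakness passes. Bacterial products and cytokines act on heart muscle and its vessels, nitric oxide from Nos2 relaxes both, and the muscle responds less to adrenaline-like signals and alters how it handles calcium and fuel. The adrenal gland releases glucocorticoids during sepsis, and these hormones bind the receptor Nr3c1, which switches on a set of genes in many tissues, the heart among them.

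The deposited wild-type values are standardised scores: each probe set was centred and scaled over the 9 arrays, and each array was then given a mean of 0 and an SD of 1. A score therefore says only where a heart lies among these 9 hearts for that probe set, in units close to 1 SD of it over the arrays. Scores of a gene with several probe sets were averaged without rescaling, so their spread can be below 1 SD. Differences of genes with unlike numbers of probe sets, and their ranks by size, are therefore not in a common unit. Scores carry no level and no fold change, a score of 0 is not an absent transcript, and the label of whole heart could not be checked by the presence or absence of markers. Because the scores of a gene sum to nearly 0 over the 9 arrays, a gene's position in the sham hearts is not independent of its position in the septic ones.

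No gene passed the adjusted threshold. In limma's unmoderated fit of 12393 genes over the 9 arrays, 0 genes (0%) reached an adjusted p under 0.05, and 1216 genes (9.81%) had an unadjusted p under 0.05, of which 646 (5.21%) were higher and 570 (4.6%) lower in the Max Dep hearts. With limma's eBayes moderation the counts were 0 and 1312. Ranks gave a similar split: in 978 genes (7.89%) all 3 Max Dep scores lay above all 3 Min Dep scores, and in 921 genes (7.43%) all 3 lay below. An exact permutation test of 3 against 3 cannot give a two-sided p below 0.1, so these counts describe the order of the hearts and no gene below is called changed. Of all genes, 5788 (46.7%) had the higher mean in the Max Dep hearts, and the median difference was -0.08 (-0.05 without Min Dep replicate 1).

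This balance depends on the last step of the authors' scaling. When the per-array step was undone, which returned every probe set to a mean of 0 and an SD of 1.0, the median difference of all genes became -0.28, and the non-overlapping genes split into 619 (4.99%) above and 1393 (11.2%) below. Min Dep replicate 1 had the largest step of the 9 arrays, a factor of 1.21 and an offset of 0.28. On that scale 2 genes passed the adjusted threshold, Btrc with -1.48 ± 0.10 (SE) and Klk1 with -1.26 ± 0.09 (SE), both at an adjusted p of 0.0453 in limma's unmoderated fit. Both values are means of several probe sets with larger errors of their own. As deposited, these differed by -1.64 ± 0.75 and -1.19 ± 0.55 for Btrc. For Klk1 they differed by -1.69 ± 0.64, -1.52 ± 0.66 and -0.33 ± 0.83. Medians of gene lists are given below with the value on the undone scale in brackets and are read against -0.08 and -0.28, and their counts of genes higher, wholly above and wholly below against 46.7%, 7.89% and 7.43% of all genes. Where leaving out 1 septic array turned a median's sign or moved it by more than 1.5 times, the brackets also name that array with the median without it, or the ends of the range where more than 4 arrays did so. As RNA came from whole hearts, fewer cells of a type and less RNA per cell cannot be told apart in any of them.

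**Figure D1:**
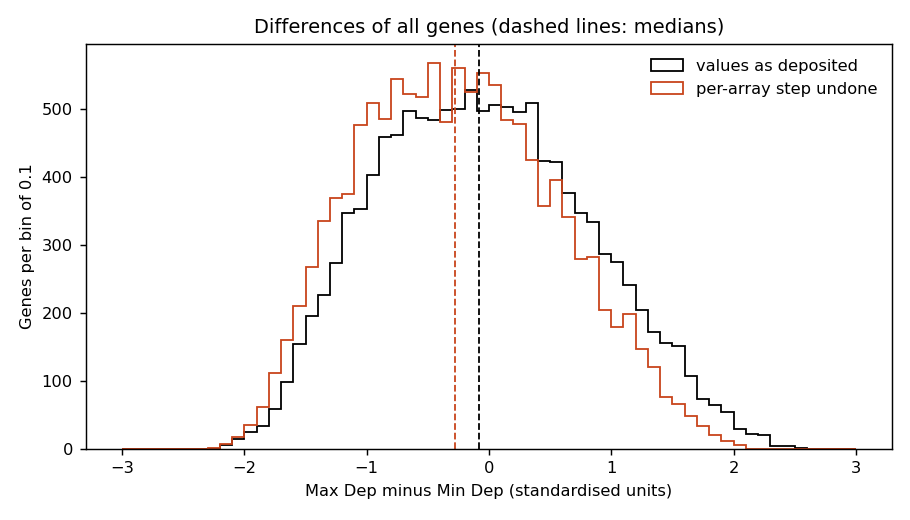
Histogram of the difference between the Max Dep and Min Dep means (3 arrays each, standardised units on the x axis) for 12393 genes, counted in bins of 0.1 on the y axis, for the deposited values and with the per-array step undone. The dashed medians lie at -0.08 and -0.28, and the whole distribution moves to the left when the step is undone.

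The 6 septic arrays did not form tight groups. Over all genes, pairs of Min Dep arrays correlated at -0.10 to 0.02, pairs of Max Dep arrays at 0.01 to 0.10, and pairs across the groups at -0.26 to 0.08, on scores whose mean over the arrays is removed by construction. The control probe sets for both ends of Gapdh and Actb, whose signals serve to judge how intact RNA is, gave a mean 5' minus 3' score of -0.19 ± 0.33 (SD, n = 3) in the Min Dep hearts, -0.71 ± 1.19 in the Max Dep hearts and 0.90 ± 0.75 in the sham hearts. Each end was standardised on its own, so this score only places an array among the others. It is no ratio of the signals and gives no level of RNA integrity. Max Dep replicate 3 was lowest, with -3.12 for Gapdh, and the part of this measure in the differences below was not tested beyond its use as a covariate, which left 971 genes at an unadjusted p under 0.05 and 0 after adjustment. Sham replicate 1 stood apart on sex-linked genes, with Xist, the RNA that silences 1 X chromosome in females, at 2.64 and the Y-linked Uty at -2.64, whereas Xist lay between -0.53 and -0.26 in all 6 septic hearts. Leaving out a sham array does not change any Max Dep minus Min Dep difference, only its error.

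Genes known to be switched on by glucocorticoids had the most positive median of the 52 lists examined. Of 27 measured members, 23 (85.2%) had the higher mean in the Max Dep hearts, 9 had all 3 Max Dep scores above all 3 Min Dep scores (7.89% of all genes did) and 1, Angptl4, had all 3 below (7.43% of all genes). The median difference was 1.22, or 0.83 with the array step undone. Leaving out each septic array in turn kept between 22 and 24 members higher, with medians from 0.90 to 1.49. These counts describe the list and are no test of it.

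Sgk1, a kinase that raises sodium uptake and protects cells under stress, scored -1.86, -1.29 and -0.76 in the 3 Min Dep hearts, 0.24, 1.02 and 1.55 in the 3 Max Dep hearts and 0.27, 0.40 and 0.84 in the sham hearts. All 3 Max Dep scores lay above all 3 Min Dep scores, and the sham hearts lay within the Max Dep range. The difference was 2.24 ± 0.43, with an unadjusted p of 0.00197 and an adjusted p of 0.313 in limma's unmoderated fit. Nfkbia encodes the inhibitor that holds the inflammatory factor NF-kB in the cytoplasm and is itself induced both by glucocorticoids and by NF-kB. It was measured by 4 probe sets, and their mean was -0.79, -1.49 and -0.61 in the Min Dep hearts, 0.52, 1.32 and 2.13 in the Max Dep hearts and -0.47, -0.27 and -0.082 in the sham hearts. The septic groups did not overlap, the difference of 2.29 ± 0.45 had the same sign in all 4 probe sets, and the sham hearts sat between them. The promoter windows of both genes are printed because they hold a match to the element each regulator binds, marked in capitals: GNACA, any 3 bases and TGTNC for the glucocorticoid receptor in Sgk1, and GGG, any 2 bases and TTTCC for NF-kB, found on the opposite strand, in Nfkbia. The windows run from 250 bases before to 50 bases after a start of transcription in RefSeq on GRCm38.p6, at chr10:21993640-21993939 on the plus strand for Sgk1, which has 6 such windows, and at chr12:55492598-55492897 on the minus strand for Nfkbia.
Sgk1: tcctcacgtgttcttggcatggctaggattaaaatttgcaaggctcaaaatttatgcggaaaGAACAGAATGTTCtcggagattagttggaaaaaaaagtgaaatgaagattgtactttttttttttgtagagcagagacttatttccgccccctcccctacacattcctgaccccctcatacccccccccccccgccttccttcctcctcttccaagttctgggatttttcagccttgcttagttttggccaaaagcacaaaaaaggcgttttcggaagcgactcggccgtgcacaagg
Nfkbia: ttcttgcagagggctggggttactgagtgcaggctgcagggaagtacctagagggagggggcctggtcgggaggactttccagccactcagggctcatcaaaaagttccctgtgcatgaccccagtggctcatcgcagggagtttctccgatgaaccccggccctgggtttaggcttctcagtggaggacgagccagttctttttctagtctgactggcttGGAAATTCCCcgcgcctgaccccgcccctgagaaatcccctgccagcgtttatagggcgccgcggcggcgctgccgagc
Searched on both strands, the first motif occurred in 156 (0.475%) of all 32851 RefSeq windows. Counted by gene, with a match in any of a gene's windows, these were 145 of 27025 genes (0.537%) and 2 of the 23 glucocorticoid-list genes that have a window, Sgk1 and Mt1. The second occurred in 535 windows (1.63%), or 512 genes (1.89%), and in 6 of the 20 genes of the Toll-like receptor and NF-kB list that have a window. A match describes letters only, and no match in a window says nothing about the receptor.

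Other non-overlapping members of the list included regulators of stress and growth signalling. Ddit4, which restrains the growth kinase complex mTORC1, scored -1.66, -0.96 and -0.35 in the Min Dep hearts and -0.019, 1.68 and 1.94 in the Max Dep hearts, a difference of 2.19 ± 0.60. Tsc22d3, also called GILZ and a textbook anti-inflammatory target of glucocorticoids, scored -1.08, -0.87 and -1.61 against -0.41, 0.72 and 1.09. The difference was 1.65 ± 0.42 over 3 probe sets. Dusp1, a phosphatase that switches off stress-activated kinases, scored -1.79, -0.29 and -0.87 against -0.015, 1.80 and 1.05, a difference of 1.93 ± 0.73. In each of these genes Max Dep replicate 1 was the lowest of its group and nearest to the Min Dep hearts. Errfi1, a feedback inhibitor of growth factor receptors, and Klf9, a zinc-finger transcription factor, were higher by 1.69 ± 0.57 and 1.23 ± 0.44 on the same pattern. In Klf9 the lowest Max Dep heart lay only just above the highest Min Dep heart. Several of its single probe sets overlapped between the groups, and they differed by 0.61 ± 0.90 to 1.89 ± 0.74.

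Several widely used glucocorticoid targets overlapped between the groups. Fkbp5, a co-chaperone of the receptor, scored 0.12, -1.25 and -1.61 against -0.19, 0.76 and 0.46, with 1 Min Dep heart inside the Max Dep range and a difference of 1.26 ± 0.76. Per1, a clock gene that glucocorticoids induce, scored -1.30, -1.28 and -0.16 against -0.50, 2.28 and 1.16. The difference was 1.90 ± 0.81. Pdk4, which blocks entry of pyruvate into the mitochondrion, scored -0.88, -0.55 and -1.12 against -0.22, -1.26 and -0.23, while all 3 sham hearts scored above 1, at 1.64, 1.30 and 1.19. Nr3c1, the receptor itself, differed by 0.029 ± 0.64, less than its error, and its sign turned in several alternatives. Its probe sets did not share a sign, at -0.43, 0.23 and 0.29. The 4 members with the lower mean in the Max Dep hearts, singled out after their values were seen, were Angptl4, a lipase inhibitor, at -0.79 ± 0.38, Il6ra, a receptor chain for interleukin-6, at -0.55 ± 0.35, Bcl6, a transcriptional repressor, at -0.19 ± 0.87, and the liver enzyme Tat at -0.24 ± 0.79. The Bcl6 value averages probe sets of opposite sign, at -0.86 and 0.48.

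**Figure D2:**
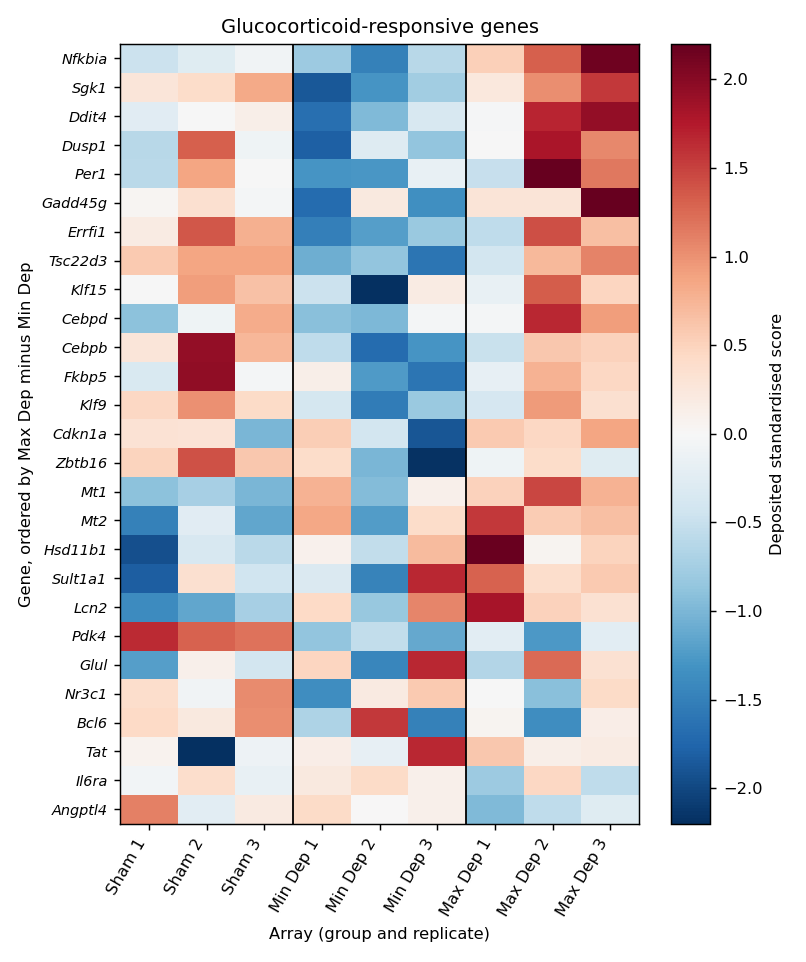
Deposited standardised scores (colour scale) of the 27 measured glucocorticoid-responsive genes, 1 row per gene in order of the Max Dep minus Min Dep difference, in the 9 wild-type arrays, 1 column per array. The upper rows are blue in the Min Dep columns and red in Max Dep replicates 2 and 3, with Max Dep replicate 1 paler; the range of differences runs from 2.29 for Nfkbia to -0.79 for Angptl4.

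Other stress-responsive lists leaned less. Among immediate early transcription factors, which are induced within minutes of a stimulus, 15 of 24 were higher, 4 lay wholly above and 1 wholly below, and the median was 0.34 (0.08 with the step undone, -0.06 without Max Dep replicate 2, 0.02 without Min Dep replicate 3, 0.59 without Min Dep replicate 1 and 0.86 without Max Dep replicate 1). Klf4, a zinc-finger factor of vessel walls and epithelia, scored -0.82, -0.87 and -0.94 against 0.44, 2.39 and 0.85, a difference of 2.10 ± 0.57. The 3 Min Dep hearts were almost level only in the mean of its probe sets. Taken singly, these gave -0.11, -0.86 and -0.63, and -1.54, -0.88 and -1.26, in the Min Dep hearts. Fosl1, an AP-1 subunit, went the other way at -1.19 ± 0.36 without overlap. Antioxidant enzymes were higher in 18 of 24, with a median of 0.53 (0.27 with the step undone, 0.28 without Min Dep replicate 2). Among them Gsta4, which removes products of lipid peroxidation, scored -1.67, -1.19 and -0.89 against 0.98, 0.92 and 0.39, a difference of 2.01 ± 0.59, and Gpx4, which reduces lipid peroxides in membranes, was higher by 1.86 ± 0.58. Sod2, the mitochondrial superoxide dismutase, scored -1.15, -0.41 and -1.22 against -0.26, -0.55 and -0.29, overlapping, with all 6 septic hearts below the sham scores of 1.12, 1.23 and 1.56. In the hypoxia and metal list, with 13 of 20 higher and a median of 0.26 (0.04 with the step undone, 0.17 without Max Dep replicate 1, 0.40 without Min Dep replicate 3 and 0.57 without Max Dep replicate 2), Car9, a carbonic anhydrase, scored 1.46, 0.87 and 0.88 against -1.38, -0.71 and -0.50, a difference of -1.94 ± 0.30 with no overlap. Circadian clock genes were higher in 12 of 19, with 1 wholly above, none wholly below and a median of 0.25 (0.016 with the step undone, 0.16 without Min Dep replicate 2 and 0.50 without Min Dep replicate 3).

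The 15 genes with the largest positive difference, taken among non-overlapping genes whose probe sets share a sign, ranged from 2.27 to 2.51, and 14 of them were measured by 1 probe set. Chchd1, a protein of the mitochondrial ribosome, scored -0.58, -1.22 and -1.41 in the Min Dep hearts, 1.01, 1.62 and 1.70 in the Max Dep hearts and -0.85, -0.39 and 0.35 in the sham hearts. Its difference of 2.51 ± 0.39 was the largest of all 12393 genes, with an adjusted p of 0.237 in limma's unmoderated fit. Ifitm2, an interferon-induced membrane protein that blocks virus entry, scored -0.56, -1.29 and -0.79 against 1.58, 1.62 and 1.5. The 3 Max Dep scores were nearly level and the sham scores of -0.80, -0.32 and -0.69 lay far below them, 2 within the Min Dep range and 1 just above it, so the Max Dep hearts alone were high. Mrs2, the magnesium channel of the inner mitochondrial membrane, was higher by 2.41 ± 0.43, and Vdac3, a pore of the outer membrane, by 2.33 ± 0.48. Fam162a, a mitochondrial protein induced by low oxygen, was higher by 2.28 ± 0.45. Med10 and Taf13, subunits of the general transcription machinery, were higher by 2.41 ± 0.46 and 2.28 ± 0.58, and U2af1l4, a splicing factor, by 2.41 ± 0.57. Tmco1, a calcium channel of the endoplasmic reticulum, was higher by 2.36 ± 0.53, Zdhhc9, which attaches palmitate to proteins such as Ras, by 2.34 ± 0.43, and Pth1r, the receptor for parathyroid hormone, by 2.27 ± 0.55. The other three with 1 probe set were Slc43a3, a nucleobase transporter, Btbd10 and the chromatin reader Yeats4, at 2.32 ± 0.59, 2.29 ± 0.59 and 2.29 ± 0.53.

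The 5 positive genes with the smallest p were Ifitm2, Ttc13, Timm44, F2r and Fkbp1a, which is described with calcium handling. Ttc13 averaged 3 probe sets and scored -0.35, -0.51 and -0.23 against 1.12, 0.95 and 1.32, a difference of 1.49 ± 0.13, with the sham hearts at -0.78, -0.52 and -0.80. Timm44, which anchors the mitochondrial import motor, scored -1.29, -0.96 and -1.28 against 0.47, 1.37 and 0.85, a difference of 2.07 ± 0.24, and the sham scores of 0.21, 0.54 and 0.38 lay nearer the Max Dep hearts. F2r, the thrombin receptor PAR1, scored -1.37, -1.28 and -1.52 against 0.89, 0.17 and 0.88, a difference of 2.03 ± 0.25, again with the sham hearts on the Max Dep side at 1.11, 0.75 and 0.49. The lowest adjusted p among positive genes was 0.0852 in limma's unmoderated fit, shared by Ifitm2 and Ttc13.

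**Figure D3:**
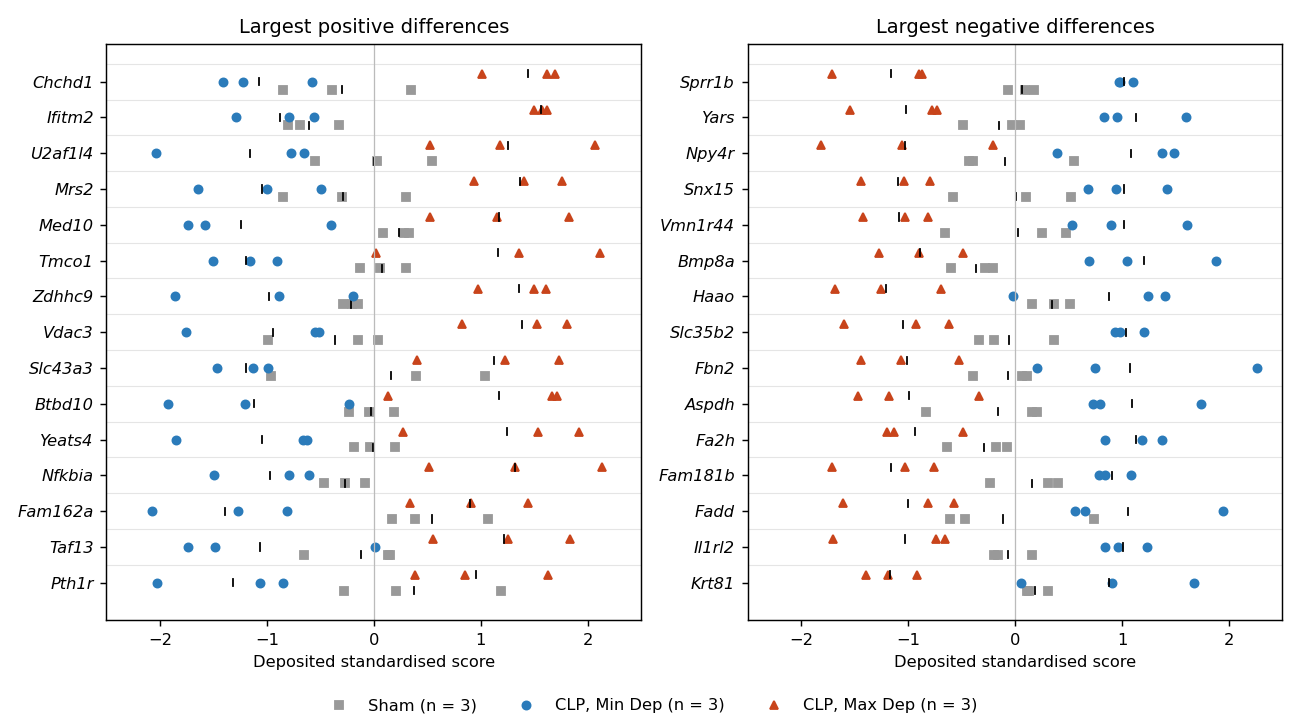
Deposited standardised scores (x axis) of the 15 genes with the largest positive (left) and the 15 with the largest negative (right) differences, 1 row per gene; squares are sham hearts, circles Min Dep and triangles Max Dep hearts, 3 of each, and short black lines are group means. The septic groups do not overlap in any row because that chose the genes, and most sham hearts lie between them.

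The 15 largest negative differences ranged from -2.18 to -2.04. Sprr1b, a cross-linked envelope protein of squamous epithelium, scored 0.98, 0.97 and 1.10 in the Min Dep hearts, -1.71, -0.89 and -0.87 in the Max Dep hearts and -0.065, 0.18 and 0.088 in the sham hearts. The Min Dep hearts were almost level, the groups lay 1.84 apart at their nearest, and the difference was -2.18 ± 0.24, with an adjusted p of 0.185 in limma's unmoderated fit and 0.0374 without Max Dep replicate 1. Vmn1r44, a pheromone receptor of the vomeronasal organ, was at -2.10 ± 0.41, Krt81, a hair keratin, at -2.04 ± 0.40, and Npy4r, a receptor for pancreatic polypeptide, at -2.11 ± 0.54. Yars, the transfer RNA synthetase for tyrosine, scored 0.83, 1.60 and 0.95 against -0.73, -0.78 and -1.54, a difference of -2.14 ± 0.32. Fadd, the adaptor that links death receptors to caspases, scored 0.65, 0.56 and 1.95 against -0.57, -1.61 and -0.81, a difference of -2.05 ± 0.57, and Il1rl2, the receptor for interleukin-36, was lower, at -2.05 ± 0.31. Haao, an enzyme of tryptophan breakdown, Fa2h, which hydroxylates sphingolipid fatty acids, and Slc35b2, the carrier of the sulfate donor into the Golgi, were lower, at -2.09 ± 0.44, -2.07 ± 0.26 and -2.09 ± 0.30. Fbn2, a microfibril protein, and Bmp8a, a growth factor of the TGF-beta family, differed by -2.08 ± 0.56 and -2.09 ± 0.36, and the sorting nexin Snx15, Aspdh and Fam181b by -2.11 ± 0.35, -2.08 ± 0.47 and -2.07 ± 0.29.

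By p, Btrc ranked first of all genes. It encodes the F-box protein that marks the NF-kB inhibitor made from Nfkbia, and beta-catenin, for destruction. Its 2 probe sets averaged 0.30, 0.29 and 0.56 in the Min Dep hearts, -1.10, -0.99 and -1.02 in the Max Dep hearts and 0.43, 0.60 and 0.77 in the sham hearts, so the 3 Max Dep hearts were low and the other 6 overlapped. The difference was -1.42 ± 0.11, with an adjusted p of 0.0852 in limma's unmoderated fit. Taken singly, the Btrc probe sets differed by -1.64 ± 0.75 and -1.19 ± 0.55, with an unadjusted p of 0.0702 and 0.0733 in limma's unmoderated fit. The small error and the first rank therefore belong to their mean. In the SCF ubiquitin ligases, to which Btrc belongs, the adaptor Skp1 scored -1.91, -0.36 and -0.023 against 1.49, 0.40 and 1.26, a difference of 1.82 ± 0.58 in the opposite direction, and 10 of the 15 genes measured, Btrc included, were higher, with a median of 0.30 (0.09 with the step undone, from -0.12 without Max Dep replicate 3 to 0.71 without Max Dep replicate 2). Rasgrp1, an activator of Ras in lymphocytes, scored 0.85, 0.67 and 0.59 against -0.63, -0.62 and -0.69. The difference was -1.35 ± 0.11, again a mean whose single probe sets had larger errors, at -1.87 ± 0.42, -1.31 ± 0.65 and -0.87 ± 0.90. Afp, the fetal liver plasma protein, scored 0.61, 0.93 and 0.35 against -0.82, -0.75 and -0.80 over 5 probe sets, a difference of -1.42 ± 0.16. Its single probe sets also had larger errors, at -1.91 ± 0.38, -1.62 ± 0.61, -1.54 ± 0.46, -1.47 ± 0.58 and -0.55 ± 0.68. Cd180, a Toll-like receptor homologue of B cells, scored 1.25, 1.08 and 1.24 against -1.17, -0.44 and -0.33. The difference was -1.84 ± 0.23. All 3 Min Dep scores of Cd180 lay above 1, apart from every other heart, since the sham hearts scored -0.52, -0.57 and -0.73.

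Sarcomere and Z-disc genes did not overlap between the groups in 3 of 28, beside 15.3% of all genes. They were higher in 20 of 28, with all 3 of these wholly above and a median of 0.28 (0.13 with the step undone, 0.11 without Max Dep replicate 2, 0.43 without Min Dep replicate 2 and 0.44 without Max Dep replicate 1). Tnnt2, the thread of troponin that binds tropomyosin, scored -1.25, -0.13 and 0.069 against 1.06, 1.43 and 0.80, a difference of 1.53 ± 0.38 without overlap, and the sham hearts scored -0.56, -0.68 and -0.27. Tpm1, the tropomyosin of heart muscle, was higher by 0.80 ± 0.24, also without overlap. Tcap, the cap of titin at the Z-disc, scored -1.17, -2.15 and -0.27 against 1.03, 0.80 and -0.65, overlapping, with a difference of 1.60 ± 0.63. Myh6, the fast adult heavy chain, scored -1.15, 0.40 and -0.30 against -0.31, 0.20 and 0.39, and Myh7, the slow fetal one, 0.52, -0.0068 and 0.80 against 0.82, 1.12 and 0.89. Their differences were 0.44 ± 0.53 and 0.50 ± 0.21, and the Myh6 value averages probe sets at -0.12 and 1.01. In Myh7 all 6 septic hearts lay above the sham scores of -1.25, -1.33 and -1.44. The septic groups did not overlap in Myh7, by a gap of 0.022. The natriuretic and cardiac stress list was higher in 9 of 13 genes, with 2 wholly above, none wholly below and a median of 0.55 (0.23 with the step undone, 0.22 without Min Dep replicate 3). Its list means were -0.032, -0.30 and -0.60 in the Min Dep hearts, all below the Max Dep means of -0.018, 0.34 and 0.17. Fhl1, a LIM protein of the stressed sarcomere, was the member with the smallest p, at -1.0, -2.09 and -0.84 against 1.68, 0.15 and 0.17, a difference of 1.98 ± 0.56. The natriuretic peptides themselves overlapped between the groups: Nppa scored 0.69, 0.020 and -0.020 against -1.75, 2.15 and -0.19, with Max Dep hearts at both ends. Nppb scored 0.25, -0.61 and -1.64 against -1.74, 0.75 and 0.65, in the same way.

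Calcium handling had 17 of 26 genes higher, 3 wholly above, 1 wholly below and a median of 0.13 (-0.02 with the step undone, -0.04 without Max Dep replicate 3, 0.04 without Min Dep replicate 1, 0.06 without Max Dep replicate 2 and 0.27 without Max Dep replicate 1). Fkbp1a, the FK506-binding protein that sits on ryanodine receptors and TGF-beta receptors, scored -0.85, -0.64 and -1.09 in the Min Dep hearts, 0.46, 0.82 and 0.53 in the Max Dep hearts and 0.40, 0.34 and 0.18 in the sham hearts. The Min Dep hearts were low and the sham hearts lay below all Max Dep ones but nearer to them. The difference of 1.46 ± 0.15 was the mean of 5 probe sets that did not all share its sign. Its heart isoform Fkbp1b scored 0.32, 0.89 and -0.25 against -0.94, 1.13 and 1.59, a difference of 0.27 ± 0.75, less than its error. Ryr2, the calcium release channel, scored -1.66, -0.54 and -0.63 against 0.30, -0.29 and -0.34, a difference of 0.83 ± 0.35 with every Max Dep score above every Min Dep one and all 6 below the sham scores of 1.37, 0.98 and 1.02. Pln, the brake on the calcium pump, went the other way at 0.39, -0.040 and 0.95 against -0.86, -0.0065 and -0.85, a difference of -1.0 ± 0.38 with 1 Min Dep heart inside the Max Dep range. The pump Atp2a2, the exchanger Slc8a1 and the L-type channel Cacna1c differed by -0.13 ± 0.40, -0.095 ± 0.57 and 0.42 ± 1.06, each less than its error. The Atp2a2 value averages probe sets of opposite sign, at -0.94, -0.89, 0.57 and 0.75. So does that of Slc8a1, at -0.75, 0.21 and 0.25. Ppp1r1a, an inhibitor of the phosphatase that reverses protein kinase A signalling, scored 1.52, 0.47 and -0.24 against -1.47, -0.80 and -0.91, the 1 calcium-list gene wholly below, with a difference of -1.64 ± 0.46.

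In beta-adrenergic signalling, which drives heart rate and force, 13 of 19 genes were higher, 2 wholly above and 2 wholly below, with a median of 0.24 (0.03 with the step undone, -0.05 without Max Dep replicate 3, 0.06 without Min Dep replicate 2 and 0.48 without Max Dep replicate 1). Grk5, a kinase that desensitises beta receptors, scored -1.08, -1.5 and -0.50 against 1.45, 1.26 and 0.50, a difference of 2.10 ± 0.68, and Pde4b, which breaks down cyclic AMP, scored -2.10, 0.098 and -0.61 against 1.08, 0.74 and 0.51. The Pde4b difference was 1.65 ± 0.63. These were the 2 members wholly above. Gnai2, the inhibitory G protein, scored 0.035, -1.04 and -0.015 against 1.85, -0.60 and 0.89, overlapping. Pde3a, the phosphodiesterase of cardiac muscle, and Akap1, an anchor of protein kinase A on mitochondria, lay wholly below, at -0.71 ± 0.28 and -0.80 ± 0.36. The probe sets of Pde3a did not share a sign, at -1.44, -0.97 and 0.27. Among ion channels, 13 of 22 were higher, with 1 wholly above, 2 wholly below and a median of 0.23 (0.09 with the step undone, from -0.11 without Min Dep replicate 1 to 0.32 without Min Dep replicate 3). Kcna5, a potassium channel of repolarisation, scored -0.17, -1.44 and -1.57 against 0.22, 1.84 and 1.44, a difference of 2.23 ± 0.63, whereas Kcnip2, a subunit of the transient outward channel, was lower, at -1.0 ± 0.37; neither overlapped.

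The lists of genes that build mitochondria had positive medians, and the list of genes that burn fat had a negative one. The mitochondrial ribosome, which makes the proteins encoded by mitochondrial DNA, was higher in 51 of 58 genes (87.9%), with 17 wholly above, none wholly below and a median of 0.91 (0.68 with the step undone). Respiratory complex I was higher in 27 of 33 (81.8%), with 9 wholly above, none wholly below and a median of 0.81 (0.54). Mitochondrial protein import was higher in 19 of 24, with 6 wholly above and a median of 0.65 (0.39 with the step undone, 0.34 without Max Dep replicate 1 and 1.06 without Max Dep replicate 2). ATP synthase was higher in 13 of 16, with 4 wholly above, 2 wholly below and a median of 0.66 (0.42 with the step undone, 1.11 without Min Dep replicate 3). Complexes II, III and IV had 17 of 27 higher, 2 wholly above and a median of 0.40 (0.21 with the step undone, 0.09 without Min Dep replicate 1 and 0.21 without Max Dep replicate 2), and 14 were higher without Min Dep replicate 1. Leaving out each septic array in turn kept between 48 and 53 mitochondrial ribosome genes and between 23 and 29 complex I genes higher.

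Mrpl12, a large-subunit protein that also binds mitochondrial RNA polymerase, scored -2.13, 0.20 and -1.44 in the Min Dep hearts and 1.14, 0.45 and 0.79 in the Max Dep hearts, a difference of 1.92 ± 0.60. Mrpl13, another large-subunit protein and the member with the smallest p, scored -0.74, -0.60 and -1.52 against 0.17, 1.17 and 0.85. The difference was 1.69 ± 0.37. Ndufb10, an accessory subunit of complex I, scored -1.96, -0.63 and -1.39 against 1.0, 0.36 and 0.85, with the sham hearts at 0.87, 0.84 and 0.37. Its difference was 2.06 ± 0.38, the Min Dep hearts were low, and the sham and Max Dep hearts shared a range. Ndufa8 was higher by 1.91 ± 0.72 without overlap. Atp5d, a stalk subunit of the synthase, scored -0.081, -1.02 and -1.83 against 1.13, 1.21 and 0.71, a difference of 1.99 ± 0.46, but Atp5c1, another stalk subunit, was lower, at -1.15 ± 0.39, as was the ring subunit gene Atp5g2, at -1.26 ± 0.47, both without overlap. Timm9, a chaperone of the import pathway, was higher by 1.61 ± 0.43.

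Fatty acid uptake and oxidation, the main fuel pathway of the adult heart, leaned the other way, with 6 of 26 genes higher (23.1%), 1 wholly above, 2 wholly below and a median of -0.47 (-0.52 with the step undone). The median was -0.82 without Min Dep replicate 1, -0.21 without Max Dep replicate 2 and -0.19 without Min Dep replicate 3, and 11 genes were higher without Max Dep replicate 2 and 10 without Min Dep replicate 3. The list means overlapped between the groups, at -0.64, -0.056 and 0.40 in the Min Dep hearts and -0.034, -1.04 and -0.40 in the Max Dep hearts. Mlycd, which clears the brake malonyl-CoA, scored 0.14, 1.84 and 1.20 against -0.59, -1.27 and 0.39, a difference of -1.55 ± 0.65. Eci1, an isomerase of unsaturated fat oxidation, was lower, at -1.5 ± 0.70, as was Ucp3, an uncoupling protein that moves with fatty acid supply, at -0.82 ± 0.25. In Ucp3 all 6 septic hearts lay below the sham scores of 1.46, 1.43 and 0.96, the Max Dep hearts lowest at -0.78, -1.52 and -0.96. Cd36, the fatty acid transporter of the cell surface, was the exception that lay wholly above, at -1.17, -0.51 and -0.031 against 1.01, 0.46 and 0.63. The difference was 1.27 ± 0.34.

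Glycolysis and glycogen genes were higher in 21 of 28, with 4 wholly above, 1 wholly below and a median of 0.55 (0.28 with the step undone). Tpi1, triose phosphate isomerase, scored -0.75, -0.80 and -2.02 against 0.40, 0.94 and 1.17 with the sham hearts at 0.38, 0.38 and 0.39, a difference of 2.03 ± 0.39. Gbe1, the glycogen branching enzyme, was higher by 1.93 ± 0.70. Pyruvate and TCA cycle genes were higher in 13 of 22, with a median of 0.24 (0.10 with the step undone, -0.03 without Min Dep replicate 1, 0.07 without Max Dep replicate 1 and 0.12 without Max Dep replicate 3). The transcription regulators that set these programmes were higher in 14 of 22, with 3 wholly above, 1 wholly below and a median of 0.61 (0.35 with the step undone, 0.25 without Min Dep replicate 2, 0.37 without Max Dep replicate 1 and 0.37 without Min Dep replicate 1). Among them Tfam, which starts transcription of mitochondrial DNA and packs it, scored -2.47, 0.039 and -0.39 against 1.19, 0.28 and 0.74. The difference was 1.68 ± 0.67 without overlap. Ppargc1a, the coactivator of mitochondrial growth, differed by 0.76 ± 0.57 and Ppara, the receptor that induces fat oxidation, by 1.65 ± 0.83, and both overlapped.

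Genes for making, folding and destroying proteins were also mostly higher in the Max Dep hearts. Cytosolic ribosomal proteins were higher in 37 of 44 (84.1%), with 16 wholly above, none wholly below and a median of 0.73 (0.44 with the step undone). Rpl6 scored 0.30, -0.087 and 0.11 in the Min Dep hearts, 1.44, 1.10 and 1.05 in the Max Dep hearts and -1.5, -1.36 and -0.90 in the sham hearts, so that the 3 groups followed each other without overlap, and the septic difference was 1.09 ± 0.20. Rpl27 was higher by 1.88 ± 0.43 and Rps2 by 1.96 ± 0.71. Ribosomal protein genes have many near-identical pseudogenes, so a probe set may read more than its named gene.

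Heat shock proteins and their partners were higher in 25 of 29 (86.2%), with 6 wholly above, 1 wholly below and a median of 0.67 (0.37). Stip1, which hands clients from Hsp70 to Hsp90, scored -0.23, -0.63 and -1.53 against 1.52, 1.10 and 1.52, a difference of 2.18 ± 0.45. Hspa8, the constitutive Hsp70, scored -1.08, -0.54 and -0.44 against 0.64, 2.11 and 0.78 over 4 probe sets, a difference of 1.87 ± 0.42, and Hsp90aa1 was higher by 1.80 ± 0.45. Cct3, a subunit of the chaperonin that folds actin and tubulin, had the smallest p of the list, at -0.46, -0.51 and -0.73 against 0.96, 1.06 and 0.67. The difference was 1.46 ± 0.19 over 6 probe sets. The inducible Hspa1b scored 0.058, -1.37 and -1.11 against -0.23, -0.15 and -0.16, overlapping, with 2 of 3 sham hearts above all septic ones. Chaperones of the endoplasmic reticulum did not share the shift: 14 of 28 were higher and the median was -0.0048 (-0.29 with the step undone, from -0.35 without Max Dep replicate 1 to 0.24 without Max Dep replicate 3).

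Proteasome genes were higher in 33 of 42 (78.6%), with 9 wholly above, 1 wholly below and a median of 0.49 (0.30 with the step undone, 0.29 without Min Dep replicate 2 and 0.85 without Min Dep replicate 3). Psmd14, the lid enzyme that removes ubiquitin chains, scored -1.19, -0.98 and -1.83 against 0.76, -0.41 and 0.93, a difference of 1.76 ± 0.45. Psmb3, a core subunit with the smallest p of the list, scored -0.88, -1.25 and -0.73 against 1.36, 0.087 and 0.71. The difference was 1.67 ± 0.36. Psmf1, an inhibitor of the proteasome, was the 1 member wholly below, at 0.75, 0.47 and 0.29 against -0.83, -0.72 and -0.062, a difference of -1.04 ± 0.34. Muscle atrophy and autophagy genes split, with 15 of 26 higher and a median of 0.17 (-0.06 with the step undone, -0.22 without Min Dep replicate 2, 0.28 without Max Dep replicate 2, 0.35 without Min Dep replicate 3 and 0.42 without Min Dep replicate 1).

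**Figure D4:**
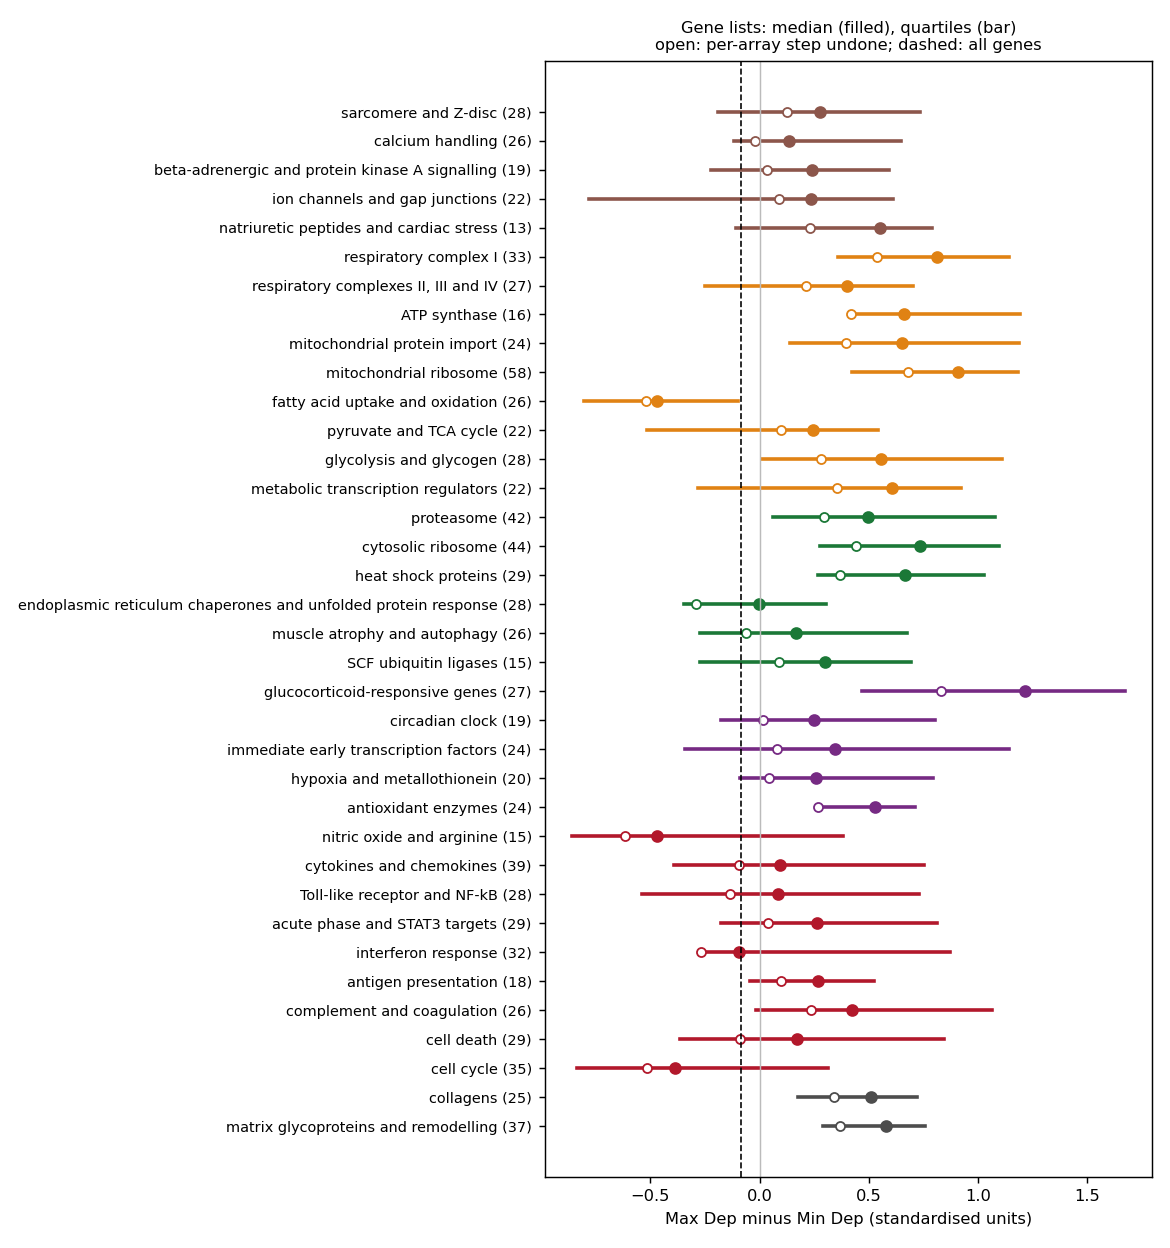
Max Dep minus Min Dep differences (x axis, standardised units) summarised for gene lists of contraction, energy, protein turnover, stress, inflammation and matrix, with the number of genes measured in brackets. Filled points are medians, bars run between the quartiles, open points are medians with the per-array step undone, and the dashed line marks the median of all genes at -0.08; glucocorticoid-responsive genes lie farthest right at 1.22 and fatty acid oxidation is on the left at -0.47.

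The classical inflammatory mediators had no common direction. Cytokines and chemokines were higher in 22 of 39, with 2 wholly above, none wholly below and a median of 0.09 (-0.10 with the step undone, from -0.22 without Max Dep replicate 1 to 0.34 without Min Dep replicate 2), also below 0 without Min Dep replicate 3. Tnf scored 0.56, 1.83 and -1.46 against -1.16, -0.72 and 0.26, with the Min Dep hearts at both ends. Il1b scored -0.41, 1.21 and -0.29 against 1.82, -0.27 and -1.5, with the Max Dep hearts at both ends. Il6 scored -0.63, -0.42 and -0.34 against 2.15, -0.36 and -0.22, where 1 Max Dep heart stood apart from the other 5 septic hearts. Il10, the anti-inflammatory cytokine, differed by 0.093 ± 0.97. The members with the smallest p were Ccl3, a macrophage chemokine, lower at -1.74 ± 0.60, and Ccl6, another myeloid chemokine, higher at 1.67 ± 0.62. Interleukin-1's decoy receptor Il1r2 scored 0.32, 0.049 and -0.72 against 0.57, 2.06 and 0.70. The difference was 1.23 ± 0.60 without overlap.

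Toll-like receptor and NF-kB genes were higher in 15 of 28, with 4 wholly above, 2 wholly below and a median of 0.08 (-0.14 with the step undone, -0.02 with the median of a gene's probe sets, -0.19 without Max Dep replicate 2, 0.13 without Max Dep replicate 3 and 0.14 without Min Dep replicate 1). Besides Nfkbia, Rela, the main activating subunit of NF-kB, scored -1.59, -1.0 and 0.33 against 0.66, 0.64 and 2.30, a difference of 1.95 ± 0.65 without overlap. The lipopolysaccharide receptor Tlr4 and its partner Cd14 differed by 0.36 ± 0.52 and -0.084 ± 0.74, less than their errors. Stat3, the factor through which interleukin-6 signals, scored -0.37, -1.05 and -0.84 against 0.92, 1.11 and 0.42, a difference of 1.57 ± 0.25 without overlap, with the sham hearts at 0.10, 0.082 and -0.26 between the groups. Acute phase genes and Stat3 targets were higher in 20 of 29 (median 0.26, 0.04 with the step undone, 0.44 without Max Dep replicate 3 and 0.45 without Min Dep replicate 1). Saa1, an acute phase protein, nonetheless lay wholly below, at 0.57, 0.14 and 0.75 against -0.51, -0.70 and -0.71, a difference of -1.12 ± 0.41, and Lcn2, which starves bacteria of iron, overlapped at 0.45, -0.83 and 1.07 against 1.81, 0.51 and 0.33.

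The interferon list did not share the difference of Ifitm2. Interferon-response genes were higher in 14 of 32, with a median of -0.09 (-0.27 with the step undone, from -0.41 without Max Dep replicate 3 to 0.35 without Max Dep replicate 1), also above 0 without Max Dep replicate 2, Min Dep replicate 2 or Min Dep replicate 3. The 2 members wholly above were Ifitm2 and the related Ifitm1, at 0.45, -1.11 and -0.41 against 0.92, 1.87 and 0.78. The Ifitm1 difference was 1.54 ± 0.66. Ifitm3 overlapped, with a difference of 1.24 ± 0.82. In the nitric oxide and arginine list 7 of 15 were higher, none wholly above and 3 wholly below, with a median of -0.47 (-0.62 with the step undone, -0.26 without Max Dep replicate 3, -0.16 without Max Dep replicate 2, -0.15 without Min Dep replicate 3 and -0.07 without Min Dep replicate 1). Nos2, the inducible synthase, scored -0.020, 1.78 and 0.22 against -0.91, -0.31 and -0.98 with the sham hearts at 1.40, -0.30 and -0.91. All 3 Max Dep hearts were the lower, the sham hearts spanned both groups, and the difference was -1.39 ± 0.75. Nos1, the neuronal synthase, also lay wholly below, at 0.070, 1.96 and 0.72 against -0.93, -0.37 and -0.95, a difference of -1.67 ± 0.49. Nos3, the endothelial synthase, overlapped at -0.47 ± 0.82, and Gucy1a1, a subunit of the nitric oxide receptor, was the third gene wholly below, at -0.85 ± 0.51.

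Cell death genes were higher in 17 of 29, with 5 wholly above, 2 wholly below and a median of 0.17 (-0.09 with the step undone, 0.05 without Min Dep replicate 3, 0.06 without Max Dep replicate 3 and 0.28 without Max Dep replicate 2). Endog, a mitochondrial nuclease released in apoptosis, scored -0.24, -0.91 and -0.42 against 1.27, 2.16 and 0.97. The difference was 1.99 ± 0.39. Aifm1, another mitochondrial protein that can enter the nucleus, was higher by 1.41 ± 0.37 and the death receptor Fas by 1.80 ± 0.72, whereas its adaptor Fadd was lower as given above. Complement and coagulation genes were higher in 19 of 26, with 6 wholly above, 1 wholly below and a median of 0.43 (0.23 with the step undone, 0.67 without Min Dep replicate 3). Thbd, the endothelial protein that turns thrombin into an anticoagulant, scored -0.81, -0.47 and -2.55 against 0.40, 0.21 and 0.24, a difference of 1.56 ± 0.56. F10, clotting factor X, was the member wholly below, at -1.33 ± 0.37. Cell cycle genes leaned lower, with 14 of 35 higher, 3 wholly above, 3 wholly below and a median of -0.39 (-0.52 with the step undone, -0.25 without Min Dep replicate 1 and -0.24 without Max Dep replicate 3). Antigen presentation genes were higher in 12 of 18, with 2 wholly above, none wholly below and a median of 0.27 (0.10 with the step undone, -0.10 without Min Dep replicate 1, 0.05 without Max Dep replicate 3, 0.11 without Min Dep replicate 3 and 0.53 without Min Dep replicate 2).

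Markers of myeloid cells were mostly higher in the Max Dep hearts. Macrophage and monocyte markers were higher in 20 of 23 (87.0%), with 5 wholly above, none wholly below and a median of 0.55 (0.27 with the step undone, 0.83 without Min Dep replicate 2 and 0.86 without Max Dep replicate 2). The mean of the list per array was 0.17, 0.56 and -0.046 in the Min Dep hearts, 0.77, 0.52 and 1.10 in the Max Dep hearts and -1.41, -0.55 and -1.03 in the sham hearts. Septic hearts all lay above sham hearts, and 1 Min Dep heart lay above the lowest Max Dep heart. Tyrobp, the signalling adaptor of myeloid receptors, scored 0.084, 0.59 and 0.23 against 1.02, 0.91 and 1.30. The difference was 0.78 ± 0.21. C1qb and C1qc, the macrophage-made chains of complement C1q, were higher by 1.02 ± 0.36 and 1.08 ± 0.39 without overlap. Neutrophil markers were higher in 11 of 17, with 3 wholly above, 1 wholly below and a median of 0.79 (0.39 with the step undone, 0.40 without Max Dep replicate 1 and 0.41 without Min Dep replicate 2). S100a8, an abundant calcium-binding protein of neutrophils, scored 0.58, -0.043 and 0.15 against 0.82, 1.36 and 1.06 with the sham hearts at -1.63, -0.83 and -1.38, a difference of 0.85 ± 0.28. Its partner S100a9 was higher by 0.79 ± 0.30. Mpo, the peroxidase of neutrophil granules, scored above the sham hearts in all 6 septic hearts but lay the other way between the groups, at 0.96, 1.07 and 1.11 against 0.10, 0.0068 and -0.050. The difference was -1.03 ± 0.36.

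Matrix genes differed little one by one but mostly in 1 direction. Collagens and their processing enzymes were higher in 21 of 25 (84.0%), yet none was wholly above or wholly below, with a median of 0.51 (0.34 with the step undone, 0.04 without Min Dep replicate 3, 0.30 without Max Dep replicate 3 and 0.97 without Min Dep replicate 2). Without Min Dep replicate 3, 13 of 25 were higher. Matrix glycoproteins and remodelling genes were higher in 31 of 37, with 1 wholly above and a median of 0.58 (0.37 with the step undone, 0.32 without Min Dep replicate 3 and 0.34 without Max Dep replicate 3). That gene was Adamts1, a matrix protease induced by inflammation, at -1.15, -0.74 and -1.91 against -0.43, 0.69 and 1.09, a difference of 1.72 ± 0.53. Fibroblast markers were higher in 10 of 15, with a median of 0.44 (0.22 with the step undone, -0.11 without Min Dep replicate 3, 0.16 without Max Dep replicate 3 and 0.88 without Min Dep replicate 2). They had list means of -0.69, 0.44 and -1.43 in the Min Dep hearts and -0.58, -0.55 and 0.25 in the Max Dep hearts, while all 3 sham hearts lay above them at 0.84, 0.88 and 0.79. Cardiomyocyte markers were even, with 10 of 20 higher, a median of -0.0042 (-0.12 with the step undone, from -0.16 without Min Dep replicate 1 to 0.69 without Min Dep replicate 2) and list means of -0.72, 0.38 and -0.32 against -0.41, 0.48 and -0.20. Smooth muscle and pericyte markers were higher in 10 of 16, with none wholly above or below and a median of 0.25 (0.027 with the step undone, -0.03 without Min Dep replicate 3, -0.01 without Max Dep replicate 3, 0.04 without Min Dep replicate 1 and 0.50 without Min Dep replicate 2). Endothelial markers were higher in 17 of 24, with 3 wholly above, 1 wholly below and a median of 0.32 (0.09 with the step undone, -0.09 without Min Dep replicate 3, 0.13 without Max Dep replicate 3 and 0.61 without Max Dep replicate 1). Lyve1, the receptor of lymphatic vessels, scored -1.04, -2.01 and -0.86 against 1.71, -0.15 and 0.87. The difference was 2.11 ± 0.54.

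Most lymphocyte markers had the lower mean in the Max Dep hearts. B cell markers were higher in 1 of 12, with none wholly above, 6 wholly below and a median of -1.08 (-1.13 with the step undone, -0.65 without Min Dep replicate 2). Cd22, an inhibitory receptor of B cells, scored 0.90, 1.36 and 0.12 in the Min Dep hearts, -1.29, -0.0012 and -1.49 in the Max Dep hearts and 0.19, -0.13 and 0.20 in the sham hearts. Cd79a, a signalling chain of the B cell receptor, scored -0.32, 0.95 and 0.44 against -1.54, -0.67 and -1.35 with the sham hearts at 1.29, 0.98 and 0.18. Their differences were -1.73 ± 0.49 and -1.54 ± 0.46, and the sham hearts lay above the Max Dep range in Cd79a and partly within it in Cd22. Fcer2a, the low-affinity receptor for IgE, was lower, at -1.42 ± 0.36, as were the complement receptor Cr2, at -1.80 ± 0.70, and the immunoglobulin heavy chain Ighm, at -0.87 ± 0.23 over 11 probe sets. The single Ighm probe sets ran from -1.59 ± 0.51 to 0.28 ± 1.04 and did not all share a sign. Pax5, the factor that sets B cell identity, was the 1 gene with a higher mean, singled out after its value was seen, at -0.077, -0.056 and -1.38 against 1.81, -1.79 and -0.48, a difference of 0.35 ± 0.97 with overlap. T and natural killer cell markers were higher in 2 of 16, with 2 wholly below and a median of -0.62 (-0.80 with the step undone, -0.99 without Max Dep replicate 2, -0.97 without Min Dep replicate 3, -0.35 without Min Dep replicate 2 and -0.21 without Max Dep replicate 1), and in 5 without Min Dep replicate 2 or 4 without Max Dep replicate 1. The means of the T and natural killer cell list overlapped between the groups, at 0.13, 0.86 and -0.30 against -0.74, 0.28 and -0.59. Cd3e, a chain of the T cell receptor complex, overlapped, with a difference of -1.49 ± 0.77.

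Several lists of other cell types also lay on the negative side. Hepatocyte and epithelial markers were higher in 4 of 18, with 1 wholly above, 4 wholly below and a median of -0.79 (-0.94 with the step undone). Nerve and Schwann cell markers were higher in 3 of 12, with 2 wholly below, the granule protein Chga and the noradrenaline-synthesis enzyme Th, at -1.63 ± 0.50 and -1.54 ± 0.62, and a median of -0.44 (-0.59 with the step undone, from -0.94 without Max Dep replicate 2 to -0.08 without Max Dep replicate 3). Without Max Dep replicate 3, 6 were higher. Skeletal muscle markers were higher in 3 of 13, with a median of -0.35 (-0.53 with the step undone, -0.63 without Min Dep replicate 3 and -0.56 without Max Dep replicate 2), and in 6 without Min Dep replicate 2. Erythroid and platelet markers and adipocyte markers were each higher in 7 of 15, near the share of all genes, with medians of -0.13 (-0.42 with the step undone, from -0.31 without Max Dep replicate 1 to 0.26 without Min Dep replicate 1) and -0.21 (-0.32 with the step undone, -0.10 without Min Dep replicate 2, -0.02 without Min Dep replicate 3, -0.01 without Max Dep replicate 2 and 0.06 without Max Dep replicate 1). Mesothelium markers lay on the positive side, higher in 8 of 10, with 2 wholly above, 1 wholly below and a median of 0.63 (0.35 with the step undone). Ubiquitous reference genes were higher in 8 of 13, with 2 wholly above, 2 wholly below and a median of 0.38 (0.23 with the step undone, 0.13 without Max Dep replicate 3, 0.22 without Min Dep replicate 1 and 0.82 without Max Dep replicate 2), and 3 of 5 sex-linked genes were higher, with none wholly above or below. For 4 gene families known for expression outside the heart, added after the values were seen, the counts also lay on the negative side. Olfactory receptors were higher in 8 of 31, with 6 wholly below and a median of -0.89 (-1.0 with the step undone, -0.55 without Max Dep replicate 3). Vomeronasal receptors were higher in 10 of 30, with 2 wholly below and a median of -0.60 (-0.73 with the step undone, -0.37 without Min Dep replicate 1). Keratins and keratin-associated proteins were higher in 12 of 66, with 3 wholly above, 9 wholly below and a median of -0.60 (-0.79 with the step undone, -0.97 without Min Dep replicate 3), and between 10 and 22 were higher when a septic array was left out. Defensins were higher in 1 of 16, with 5 wholly below and a median of -0.95 (-1.03).

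Array by array, the defensin list averaged 0.63, 0.90 and 0.084 in the Min Dep hearts, -0.36, -0.19 and -0.51 in the Max Dep hearts and -0.15, -0.34 and -0.18 in the sham hearts. The B cell list averaged 0.094, 1.14 and 0.13, -0.60, -0.70 and -0.44 and 0.063, 0.36 and -0.12 in the same order. In both lists the 3 Max Dep hearts were the lowest of the septic hearts, and Min Dep replicate 2 was the highest of all 9. Olfactory receptors averaged 0.67, 0.54 and 0.033 in the Min Dep hearts and -0.29, 0.13 and -0.59 in the Max Dep hearts, with overlap. Within the families, Defb7 and Defb3, beta-defensins of epithelia chosen by their values, scored 0.84, 1.05 and 1.02 against -0.19, -1.13 and -1.86 and 0.58, 1.99 and 1.10 against -0.13, -0.99 and -0.98. Since a score has no level, whether any of these genes was transcribed in these hearts cannot be read from the table, and what part such genes have in the negative side, lymphocyte markers included, was not tested. Genes measured by 1 probe set had a median difference of -0.18, with 43.5% higher, and genes measured by 2 or more had 0.03, with 51.6% higher.

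**Figure D5:**
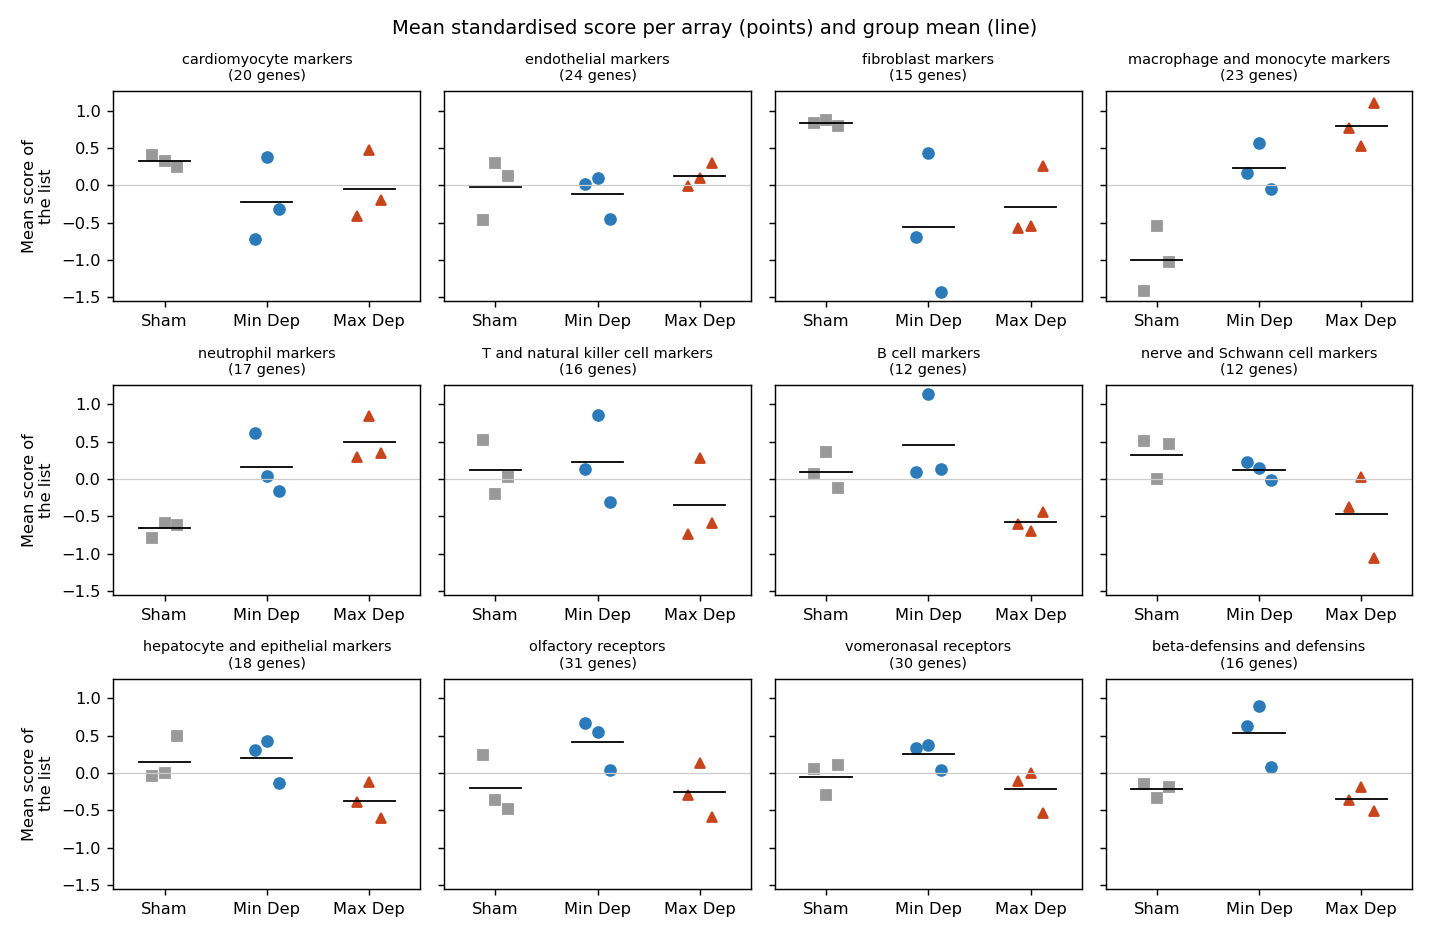
Mean standardised score of each list per array (y axis) for 9 lists of cell type markers and 3 gene families, with the number of genes in brackets; squares are sham, circles Min Dep and triangles Max Dep hearts, 3 of each, and lines are group means. Macrophage markers are lowest in sham and highest in Max Dep hearts, B cell markers and defensins are lower in all 3 Max Dep than in all 3 Min Dep hearts, and cardiomyocyte markers overlap.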

How the data were processed

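Biotin-labelled RNA of each heart was hybridised to 1 oligonucleotide array, per the labels' protocols. The 9 wild-type arrays were deposited as 1 table of 22690 probe sets whose values are scores: from the values, the authors standardised each probe set over the arrays and then each array to a mean of 0 and an SD of 1.0, with software not given in the sources used here. Undoing an exact linear step per array returned every probe set to a mean within 6.6e-08 of 0 and an SD of 1.0.

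Leaving out 64 control probe sets, of the other 22626 the 20380 paired with 1 gene symbol in the platform annotation were averaged per gene, giving 12393 genes, 7437 of them with 1 probe set; 691 paired with several genes and 1555 with none were not used. Groups came from the titles, and replicate numbers only name arrays. Group means were fitted to all 9 arrays with limma 3.58.1 in R 4.3.3 without moderation. That choice was made because standardising fixes the total spread of each probe set over the arrays, although the spread within groups still differs between genes. Adjustment of p-values was by Benjamini-Hochberg over all genes at a threshold of 0.05, and the fit was tested on simulated data. The sources used here do not say that same-group arrays came from separate litters or days.

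Genes with all 3 Max Dep scores above or below all 3 Min Dep scores were counted. Named genes were the 15 most positive and 15 most negative of these with probe sets of 1 sign and no clone name, the 5 with the smallest p each way, up to 5 per list with the smallest p, a set of cardiac and septic genes whatever their values, and members of small counts; Adrb1 and Grk2 of that set have no probe set paired with 1 gene here. The members and the 52 lists were chosen with earlier results of these data known. Alternatives were eBayes, only the 6 septic arrays, the 5' minus 3' control as covariate, the array step undone, median centring, every probe set, genes with 1 probe set, the mean of a list, the median of probe sets and each array left out. Promoter windows are RefSeq's.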

Additional observations from a re-analysis of the deposited data

How the results depend on the processing

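Of 155 named genes and 2170 recomputed differences, 2133 kept their sign; 37 in 14 genes turned, and each of these 14 had a difference smaller than its error in the deposited values. The adjusted threshold was passed by 2 genes with the per-array step undone and by 0 to 1 when an array was left out; 0 passed under the other alternatives that were run. Genes wholly above numbered 619 with the step undone, 1828 of 20380 with every probe set tested and 520 of 7437 among genes with 1 probe set; genes wholly below numbered 1393 with the step undone, 1279 with every probe set tested, where 58.8% of the non-overlapping sets lay above (51.5% of genes in the deposited values), and 541 among genes with 1 probe set. Without 1 septic array the counts ran from 1361 to 1901 above and from 1434 to 1987 below, since 2 values are more easily separated from 3. With the step undone, Nr3c1 became -0.038, Fkbp1b -0.0025 and Il10 -0.096; with the 5' minus 3' control as a covariate, Nr3c1 became -0.14, Nppa 0.18, Cd14 0.024 and Il1b 0.0033. Left-out arrays gave Atp2a2 -0.41 to 0.063, Bcl6 -0.83 to 0.69, Cacna1c -0.21 to 1.63, Cd14 -0.65 to 0.27, Fkbp1b -0.22 to 1.04, Il10 -0.18 to 0.61, Il1b -1.05 to 0.60, Nppa -1.20 to 0.75, Nr3c1 -0.56 to 0.42, Pax5 -0.63 to 1.17, Slc8a1 -0.34 to 0.079, Tat -0.60 to 0.32, Uty -0.047 to 0.72 and Xist -0.12 to 0.040. Of 560 recomputed list medians, 52 moved by over 1 SD of the list mean between arrays. The cause of these changes was not tested. No paired analysis was possible because the titles carry animal codes and no replicate numbers shared between groups. With 3 arrays a group and no levels, small differences and absent transcripts cannot be resolved.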
